A study of Mus musculus with 7 samples.

Results

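The genes described here are 8 core genes of the Hedgehog pathway in mouse retina: Shh, Ptch1, Smo, Sufu, Gli1, Gli2, Gli3 and Hhip. They were chosen by gene name. Of the 8, 7 had rows among the 16138 gene names of the transcript tables, with 21 of 55404 transcripts, and Shh, the ligand, was not analysed here. Retinas of ICR mice, an outbred stock, were taken at embryonic day 17.5 and kept in culture for 2 days. All of them received an EGFP plasmid by electroporation, together with either a control plasmid (control, n = 3 libraries) or a plasmid for a short hairpin RNA named shKmt2f (n = 4 libraries). Kmt2f is another name of Setd1a, which codes for an enzyme that methylates histone H3 at lysine 4, a mark of active promoters. EGFP-positive cells were sorted from the dissociated explants and their RNA was sequenced, so each library is a mixture of all retinal cells that took up the plasmids. In such a mixture, fewer cells of a type and less RNA per cell cannot be told apart. Whether libraries of the same group derive from different animals or explants is not in the labels, and the sequence, number and promoter of the hairpins were not in the sources used here. Each p-value below is therefore relative to the variation among these libraries, some or all of which may be technical.

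Hedgehog signalling starts when the secreted ligand binds Ptch1, a membrane receptor that otherwise holds the membrane protein Smo inactive. Freed Smo acts in the primary cilium on complexes of Sufu with the Gli transcription factors, so that less Gli3 is cut to its repressor form and more Gli2 reaches the nucleus as an activator. Gli1, Ptch1 and Hhip are themselves transcribed in response, and Ptch1 and Hhip then bind ligand and restrain the pathway. In the embryonic retina, ganglion cells are a source of Shh and the dividing progenitor cells respond to it, with Gli1 and cyclin D1 among the genes known to respond.

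Levels are in TPM, a share of the library's transcripts scaled by transcript length. Gene values are sums over the transcripts of a gene. A fold change is the difference of the mean log2(TPM + 1), shKmt2f minus control, which understates the change of low genes, and adjusted p-values are from limma with Benjamini-Hochberg adjustment over the 12452 genes that reached 1 TPM in 3 libraries or more. By this test 1295 genes (10.4%) were higher and 459 (3.69%) lower at an adjusted p under 0.05. Median-ratio scaling of the libraries lowered the median log2 fold change by 0.12, and the split was then 1118 higher and 824 lower. A correction on GC content and length gave 640 higher and 663 lower, and weighting TPM by transcript length gave 1558 higher and 940 lower. Between 11837 and 12314 genes stood at 1 TPM or more per library, and the read depth behind them is unknown, as TPM carries none. Control replicate 2 stood apart from its group in that its correlation across genes, which are not independent replicates, was higher with shKmt2f replicates 3 and 4 (Pearson r = 0.978 and 0.976) than with control replicates 1 and 3 (0.973 and 0.967). The longest Setd1a transcript, ENSMUST00000047075.13, stood at 0.767, 0.959 and 0.764 TPM in the control libraries against 0.407, 0.328, 0.374 and 0.432 TPM in the shKmt2f libraries, 46.4% of the control mean with groups that did not overlap (exact permutation test, two-sided, p = 0.0286, the smallest that 3 against 4 libraries allow). This transcript was below 1 TPM in every library and so was not tested by limma, and the authors' deposited table gave it a q of 1.74e-05. The sum over all Setd1a transcripts was 8.95 ± 2.36 TPM in control libraries against 6.94 ± 1.71 TPM in shKmt2f libraries (adjusted p by limma = 0.365). Fragments of 315 and 389 bases held 53.8% and 33.7% of this sum, and the longest transcript held 7.38%.

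Because the methyltransferase family to which Setd1a belongs is known to act at promoters rich in CpG, the windows around the annotated starts are shown for 3 genes: Gli3 and Smo, whose main transcripts had a q under 0.05 in the authors' deposited table, and Ptch1, the receptor and target gene, as a contrast. The sequences are from RefSeq on GRCm38.p6 and run from 250 bases before to 50 bases after the start, 5′ to 3′ on the gene's strand. Gli3 is at chr13:15463473-15463772 on the plus strand, Smo at chr6:29735247-29735546 on the plus strand and Ptch1 at chr13:63565686-63565985 on the minus strand. Capitals mark CpG dinucleotides.
Gli3: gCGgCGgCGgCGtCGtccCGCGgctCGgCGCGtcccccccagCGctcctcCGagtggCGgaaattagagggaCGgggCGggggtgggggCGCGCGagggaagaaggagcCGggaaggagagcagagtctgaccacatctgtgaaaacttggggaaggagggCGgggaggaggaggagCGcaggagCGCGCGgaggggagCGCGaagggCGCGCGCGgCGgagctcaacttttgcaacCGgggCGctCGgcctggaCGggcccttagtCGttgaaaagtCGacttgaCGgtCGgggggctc
Smo: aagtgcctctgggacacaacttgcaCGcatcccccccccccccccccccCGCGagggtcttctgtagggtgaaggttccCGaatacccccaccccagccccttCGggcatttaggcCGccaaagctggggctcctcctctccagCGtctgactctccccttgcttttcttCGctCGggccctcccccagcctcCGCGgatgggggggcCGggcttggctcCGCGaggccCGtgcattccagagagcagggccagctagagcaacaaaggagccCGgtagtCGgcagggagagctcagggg
Ptch1: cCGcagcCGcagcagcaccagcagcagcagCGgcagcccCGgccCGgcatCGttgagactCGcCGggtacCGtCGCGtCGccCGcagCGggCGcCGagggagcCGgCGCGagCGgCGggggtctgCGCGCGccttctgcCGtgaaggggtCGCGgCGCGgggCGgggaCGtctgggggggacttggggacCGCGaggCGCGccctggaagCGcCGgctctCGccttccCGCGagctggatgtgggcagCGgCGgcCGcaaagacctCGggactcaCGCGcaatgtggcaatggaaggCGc
The coding transcripts with the highest TPM of these genes begin downstream of the windows, at 15463980 for Gli3 (ENSMUST00000110510.3), 29735694 for Smo (ENSMUST00000001812.4) and 63564535 for Ptch1 (ENSMUST00000192155.5). A longer Ptch1 coding transcript of lower TPM, ENSMUST00000021921.10, begins inside the window, at 63565735. Windows of this kind were found for 6 of the 8 genes. The Ptch1 window held 47 CpGs, Gli3 39, Hhip 30, Gli2 28, Smo 17 and Sufu 12, against a median of 7 over 32851 such windows. By CpG count Ptch1 and Gli3 thus stood at percentiles 98.6 and 95.6 of all windows, and Smo and Sufu at 68.6 and 60.4. A Gli-binding sequence, GACCACCCA or its reverse complement TGGGTGGTC, was in 83 of all windows (0.253%) and in 0 of the 6 windows, which says only that these letters are not in these 300 bases.

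In control libraries the genes spanned more than 100-fold in level, and the ranges of neighbours in the order overlapped for Hhip and Gli1 alone. Smo was highest with 38.5 ± 7.65 TPM (mean ± SD, n = 3), followed by Sufu with 15.4 ± 0.508, Gli3 with 9.37 ± 3.03, Ptch1 with 4.28 ± 0.665 and Gli2 with 2.33 ± 0.860 TPM. Hhip and Gli1 were low, at 0.472 ± 0.126 and 0.254 ± 0.113 TPM. The shKmt2f libraries differed in 1 place of this order: Gli3, at 5.31 ± 0.513 TPM, no longer stood above Ptch1, at 5.61 ± 1.37 TPM, and these neighbours overlapped. None of the 5 genes that passed the filter on low values (Smo, Sufu, Gli3, Ptch1 and Gli2) was past the limma threshold, against 14.1% of all tested genes in either direction. At an unadjusted p under 0.05 there was 1 of the 5, Gli3, against 32.3% of all tested genes. Gli1 and Hhip did not reach the filter and were examined by permutation. Without a filter their limma adjusted p-values were 0.201 and 0.434.

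**Figure D1:**
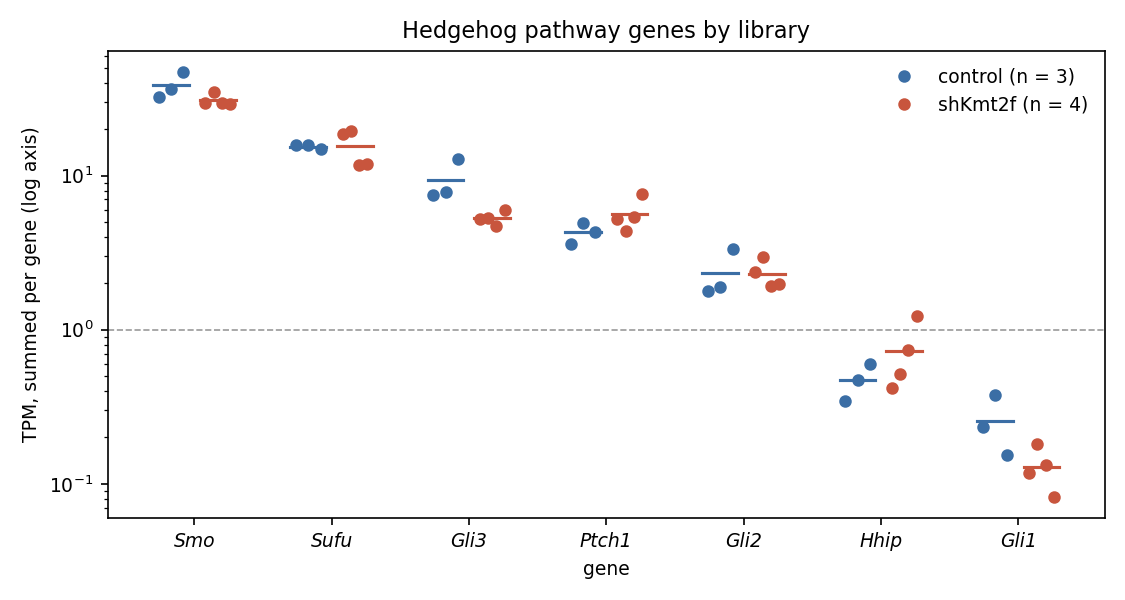
TPM summed per gene (log axis) for the 7 Hedgehog genes with rows, in 3 control libraries (blue) and 4 shKmt2f libraries (red). Points are libraries, short lines are group means and the dashed line marks 1 TPM. Gli3 is the gene whose groups do not overlap, and Hhip and Gli1 lie mostly below 1 TPM.

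At the level of reception, Ptch1 and Smo did not differ past the threshold, and their fold changes had opposite signs. Ptch1 (ENSMUSG00000021466, chromosome 13, 63508328 to 63573598, minus strand, GRCm38) stood at 3.60, 4.93 and 4.32 TPM in the control libraries and at 5.19, 4.35, 5.36 and 7.55 TPM in the shKmt2f libraries. The groups overlapped through shKmt2f replicate 2, and shKmt2f replicate 4 was the highest. The log2 fold change was 0.31 (SE 0.19, 95% interval -0.12 to 0.75, adjusted p by limma = 0.301), so the interval runs from a slight decrease to an increase of more than 1.5-fold. It was 0.07 after the correction on GC content and length, and 0.18 without shKmt2f replicate 4.

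The Ptch1 sum was made of unlike transcripts. The main coding transcript, ENSMUST00000192155.5 of 7002 bases, held 40.3% of it, and a retained-intron fragment of 349 bases, ENSMUST00000220588.1, held 35.8%. The coding transcript stood at 1.34, 1.92 and 1.72 TPM in control libraries and at 2.44, 2.70, 1.93 and 2.16 TPM in shKmt2f libraries. All shKmt2f libraries were above all control libraries, with the lowest of them next to control replicate 2. Its p was 0.0571 by the exact permutation test and its limma adjusted p was 0.314 (log2 fold change 0.32, SE 0.17). The authors' deposited table gave it a q of 0.261. The 349-base fragment ranged from 0 to 4.07 TPM within the shKmt2f group alone.

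Smo (ENSMUSG00000001761, chromosome 6, 29735503 to 29761365, plus strand), the signal transducer, stood at 32.2, 36.2 and 47.0 TPM in control libraries and at 29.5, 34.8, 29.6 and 29.1 TPM in shKmt2f libraries. Control replicate 3 was the highest, and the groups overlapped because shKmt2f replicate 2 lay between control replicates 1 and 2. The shKmt2f mean was 80.0% of the control mean, with a log2 fold change of -0.30 (SE 0.15, 95% interval -0.64 to 0.04, adjusted p by limma = 0.206). Without control replicate 3 it was -0.15. It was past the threshold under 3 of 15 alternatives: the correction on GC content and length (-0.32, adjusted p = 0.0371, where 5.33% of all tested genes were lower), length weighting (-0.42, 0.0416, with 6.90% lower) and median-ratio scaling (-0.42, 0.0424, with 6.63% lower). Nearly all of the Smo sum (96.5%) came from its coding transcript of 3779 bases, ENSMUST00000001812.4, for which the authors' deposited table gave an effect of -0.31 on the natural log scale and a q of 0.0152. The same transcript had a limma adjusted p of 0.250 among all tested transcripts.

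Hhip (ENSMUSG00000064325, chromosome 8, 79965851 to 80058006, minus strand), the membrane protein that binds Hedgehog ligands, reached 1 TPM in 1 library. Its sum was 0.345, 0.474 and 0.598 TPM in control against 0.418, 0.515, 0.739 and 1.22 TPM in shKmt2f libraries, which overlapped (exact permutation p = 0.343). Its coding transcript of 9074 bases, ENSMUST00000079038.3, was less variable. It stood at 0.345, 0.290 and 0.341 TPM in control libraries and at 0.418, 0.515, 0.443 and 0.582 TPM in shKmt2f libraries, 150.4% of the control mean, and the groups did not overlap (exact permutation p = 0.0286, the smallest possible). The authors' deposited table gave this transcript a q of 0.260.

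Sufu (ENSMUSG00000025231, chromosome 19, 46396896 to 46488804, plus strand), which binds the Gli proteins and keeps them inactive, was the gene with the most even control values. They were 15.7, 15.7 and 14.8 TPM, while the shKmt2f libraries split into 18.7 and 19.6 TPM in replicates 1 and 2 and 11.7 and 11.9 TPM in replicates 3 and 4. The control libraries lay between these pairs. The same pairs stood out in the correlation across all genes. Pearson r was 0.9858 for shKmt2f replicates 1 and 2 and 0.9883 for replicates 3 and 4. Between the pairs it was 0.9749 to 0.9782. Whether the libraries of a pair share a source was not tested. The log2 fold change of Sufu was -0.03 (SE 0.20, 95% interval -0.49 to 0.44, adjusted p by limma = 0.947), and its sign changed between alternatives. The longest coding transcript, ENSMUST00000039922.12 of 4522 bases, was 7.54 ± 0.968 TPM in control against 7.06 ± 1.41 TPM in shKmt2f libraries. A non-coding fragment of 334 bases, ENSMUST00000123252.1, held 39.4% of the Sufu sum. A minor coding transcript, ENSMUST00000118440.1, stood at 0.291 to 0.399 TPM in control against 0.0372 to 0.222 TPM in shKmt2f libraries without overlap (exact permutation p = 0.0286), at 1.60% of the Sufu sum.

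Among the 3 Gli factors, Gli3 was lower in every shKmt2f library than in every control library, and Gli2 had means of 2.33 and 2.31 TPM in the 2 groups. Gli3 (ENSMUSG00000021318, chromosome 13, 15463235 to 15730026, plus strand), the main source of Gli repressor, stood at 7.43, 7.81 and 12.9 TPM in control against 5.21, 5.30, 4.74 and 5.99 TPM in shKmt2f libraries. Control replicate 3 was far above the other controls, and the groups did not overlap, as was the case in this direction for 9.66% of all tested genes. The shKmt2f mean was 56.7% of the control mean. The log2 fold change was -0.68 (SE 0.20, 95% interval -1.13 to -0.23), lower than that of all but 2.93% of tested genes, and its limma adjusted p of 0.0527 was just above the threshold (exact permutation p = 0.0286). Without control replicate 3 the log2 fold change was -0.45 (adjusted p by limma = 0.112).

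The Gli3 value lay close to the threshold under most settings. It kept its sign in 15 of 15 alternatives, between -1.01 and -0.45, with limma adjusted p-values between 0.0107 and 0.119. It was past the threshold in 5: length weighting (-1.01, adjusted p = 0.0107), median-ratio scaling (-0.79, 0.0235), the correction on GC content and length (-0.68, 0.0264), leaving out control replicate 2 (-0.78, 0.0368) and coding transcripts alone (-0.73, 0.0391). All tested genes called lower made up 6.90%, 6.63%, 5.33%, 4.62% and 4.08% in these 5 settings, in the same order.

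**Figure D2:**
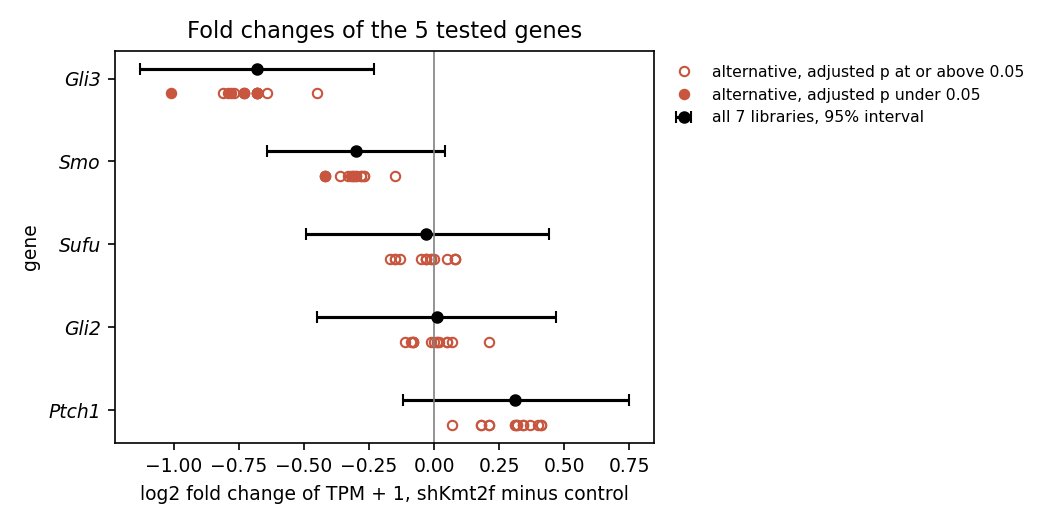
Log2 fold changes of TPM + 1, shKmt2f minus control, for the 5 tested genes. Black points with bars are the values from all 7 libraries with 95% intervals, and red circles below are the 15 alternatives per gene (14 for Gli2), filled where the adjusted p was under 0.05. Gli3 is below 0 in all of them, and Sufu and Gli2 lie on both sides of 0.

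Gli3 had 4 transcripts. The full-length coding transcript, ENSMUST00000110510.3 with 8170 bases and 15 exons, stood at 3.24, 4.21 and 5.51 TPM in control libraries and at 1.90, 2.78, 1.76 and 1.95 TPM in shKmt2f libraries. Every shKmt2f library was below every control library, and the shKmt2f mean was 48.5% of the control mean (4.32 ± 1.14 against 2.10 ± 0.459 TPM). The log2 fold change was -0.77 (SE 0.21, adjusted p by limma = 0.0805 over 37024 transcripts, exact permutation p = 0.0286). In the authors' deposited table the same transcript had an effect of -0.80 on the natural log scale and a q of 9.75e-08. The authors' q and the limma adjusted p thus fall on opposite sides of 0.05 for this transcript. The authors' q was under 0.05 for 5.52% of all transcripts, and the limma adjusted p for 2.24% of those tested. Under median-ratio scaling the full-length Gli3 transcript was also past the limma threshold (-0.86, adjusted p by limma = 0.0446), as were 1.39% of tested transcripts in this direction.

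A short coding fragment from the 5′ end of Gli3, ENSMUST00000141194.7 with 466 bases, held 38.1% of the gene's sum, and 66.1% of its bases are shared with the full-length transcript. It stood at 2.38, 3.07 and 5.16 TPM in control against 2.38, 1.53, 1.84 and 2.44 TPM in shKmt2f libraries, which overlapped (adjusted p by limma = 0.228). The 2004-base coding transcript ENSMUST00000130065.7 and the retained-intron transcript ENSMUST00000130535.1 also overlapped between groups, with 0.0903 to 1.36 against 0.400 to 0.872 TPM and 0.443 to 0.831 against 0.473 to 0.735 TPM. The share of the Gli3 sum in coding transcripts was 92.5% ± 2.54 in control and 88.5% ± 3.01 in shKmt2f libraries (exact permutation p = 0.171).

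**Figure D3:**
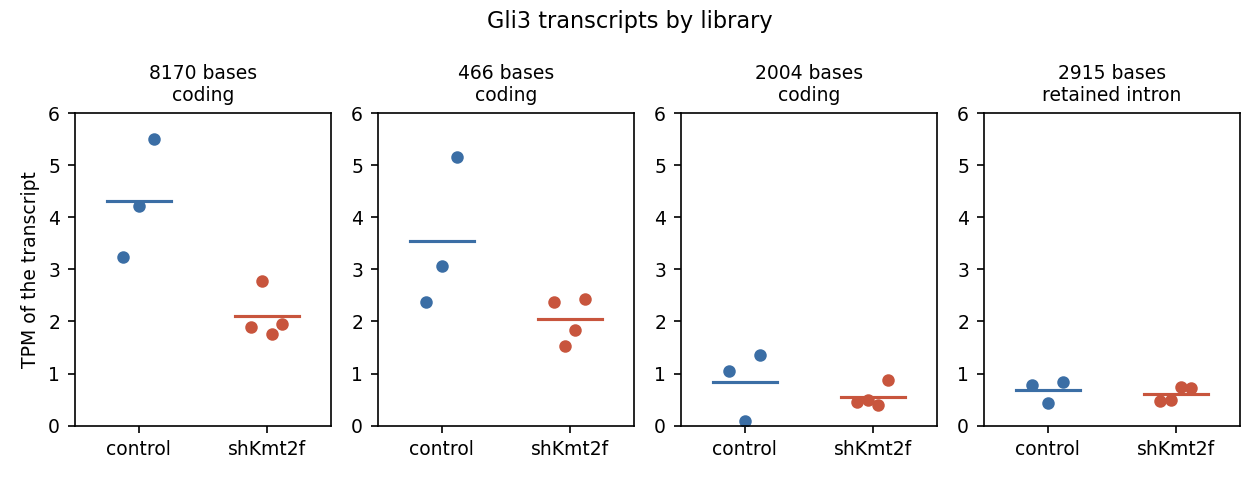
TPM of the 4 Gli3 transcripts by library, with group means as lines, for 3 control (blue) and 4 shKmt2f libraries (red). The groups are apart for the 8170-base transcript and overlap for the other 3.

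Gli2 (ENSMUSG00000048402, chromosome 1, 118834132 to 119053619, minus strand), the main activator on ligand, was represented by 1 coding transcript of 6637 bases. It stood at 1.79, 1.89 and 3.33 TPM in control against 2.37, 2.98, 1.91 and 1.98 TPM in shKmt2f libraries. Control replicate 3 was again the highest, and all shKmt2f libraries lay within the control range. The log2 fold change was 0.01 (SE 0.20, 95% interval -0.45 to 0.47, adjusted p by limma = 0.986), an interval that reaches a similar distance to either side of 0.

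Set against Gli2 in the same library, Gli3 varied less among the control libraries, control replicate 3 being high for both. The ratio of the longest Gli3 to the Gli2 transcript was 1.81, 2.23 and 1.66 in control libraries and 0.803, 0.932, 0.923 and 0.985 in shKmt2f libraries. All control libraries held more Gli3 than Gli2 transcript and all shKmt2f libraries held less. The mean ratio was 1.90 ± 0.299 in control and 0.911 ± 0.0766 in shKmt2f libraries, 47.9% of the control value. The longest Gli3 transcript held 43.3% of the Gli3 sum. With gene sums the ratio was 4.15, 4.14 and 3.87 against 2.20, 1.78, 2.48 and 3.02, which also did not overlap. By these sums every library of both groups held more Gli3 than Gli2. The ratio of the longest Gli3 transcript to that of Smo was 0.104 to 0.121 in control and 0.0627 to 0.0826 in shKmt2f libraries. These ratios were chosen after the values had been seen and are given without a test.

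**Figure D4:**
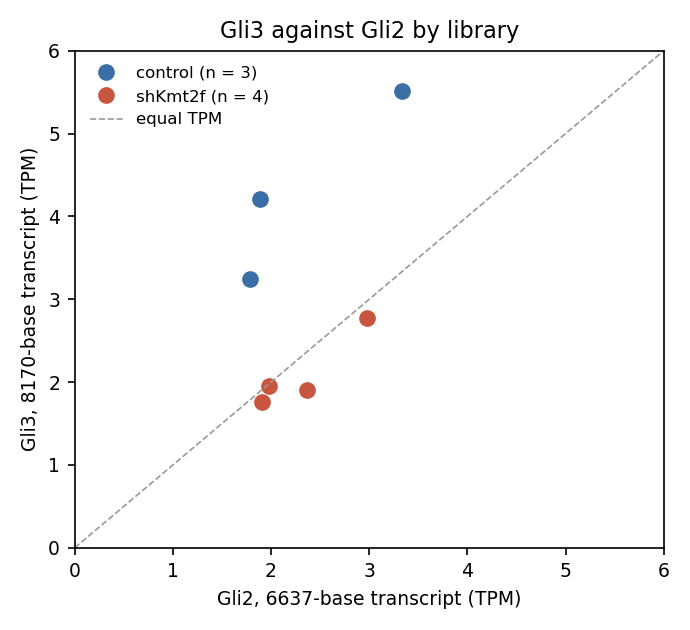
TPM of the longest Gli3 transcript against that of Gli2, 1 point per library, for 3 control (blue) and 4 shKmt2f libraries (red). The dashed line marks equal TPM, with the control libraries above it and the shKmt2f libraries below it. By gene sums, not shown here, all libraries held more Gli3 than Gli2.

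Gli1 (ENSMUSG00000025407, chromosome 10, 127329882 to 127341974, minus strand), the activator whose transcription is a common readout of the pathway, was near the lower end of what the tables hold. It stood at 0.234, 0.376 and 0.153 TPM in control against 0.117, 0.181, 0.133 and 0.0827 TPM in shKmt2f libraries. The shKmt2f mean was 50.6% of the control mean, but the groups overlapped through control replicate 3 and shKmt2f replicate 2 (exact permutation p = 0.0857). Gli1, Gli3, Smo, Hhip and Ptch1 overlap other annotated genes, and whether the quantification used strand is not given in the sources used here.

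Over all 21 transcripts of these genes, the groups did not overlap for 2 that were lower (full-length Gli3 and the minor Sufu transcript) and 2 that were higher (the Ptch1 and Hhip coding transcripts). This occurred in 5.84% and 12.2% of all transcripts, respectively. By limma 0 of the 10 tested transcripts passed (1 at an unadjusted p under 0.05), against 2.24% of all tested transcripts. A q under 0.05 was given to 2 of the 21 in the authors' deposited table, full-length Gli3 and Smo, against 5.52% of all transcripts.

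The rest of the pathway was described by 62 gene names in 5 lists, apart from the 8 genes above, with Adrbk1 listed also as Grk2. Of these, 48 were tested and 6 passed, 3 higher (6.25%, against 10.4% of all tested genes) and 3 lower (6.25%, against 3.69%), with a median log2 fold change of 0.08 against 0.09 for all tested genes. The medians of single lists given below lie near 0 for 4 of the 5 lists, and some change sign: after median-ratio scaling the ligand and receptor lists were at -0.08 and -0.12, and after the correction on GC content and length the target list was at 0.03.

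Among ligands and release factors, 1 of 4 tested genes was higher and 0 lower, with a median of 0.02. Scube1, a secreted protein of the family that helps release Hedgehog ligands, rose from 1.14, 3.01 and 2.45 to 5.91, 6.12, 4.82 and 5.02 TPM (log2 fold change 1.06, SE 0.22, adjusted p by limma = 0.0257). Its groups did not overlap, but leaving out any single library other than control replicate 2 moved its adjusted p above the threshold, up to 0.0734. The other 2 Hedgehog ligands, Ihh and Dhh, were below 0.3 TPM in every library.

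Among receptors and co-receptors, 0 of 5 tested genes were higher and 1 was lower, with a median of 0.07. Gpc3, a cell-surface glypican known to bind Hedgehog ligands and limit signalling, fell from 6.98, 9.97 and 10.4 to 3.14, 4.59, 3.49 and 4.05 TPM (log2 fold change -1.06, SE 0.18, adjusted p by limma = 0.0156). It missed the threshold without control replicate 3 (0.0524) and without shKmt2f replicate 1 (0.0512). The co-receptors Cdon and Gas1 stood at 13.2 ± 4.54 against 13.8 ± 2.63 TPM and at 21.5 ± 3.71 against 24.1 ± 5.25 TPM, with overlapping groups.

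Among the 15 tested genes of ciliary transduction, 0 were higher and 0 lower (median -0.02). Kif7, the kinesin that acts on Gli proteins at the tip of the cilium, did not reach the filter. It was listed at 0.280, 0 and 0 TPM in control against 0.818, 1.39, 0.385 and 0.820 TPM in shKmt2f libraries. Kif7 was past the threshold without a filter (adjusted p by limma = 0.0458) and with length weighting (0.0238). At 0 TPM in control replicates 2 and 3, it could meet the filter under length weighting only through shKmt2f libraries, where it was higher. That call therefore adds no separate support. Other settings called 1 gene each: Ankmy2 higher with coding transcripts only, Evc lower under median-ratio scaling and Adrbk1 lower with the replicate block. The most abundant were Kif3a, a motor subunit of ciliary transport, at 66.8 ± 16.5 and 64.1 ± 5.04 TPM, and Adrbk1, a kinase that phosphorylates Smo, at 77.1 ± 40.8 and 42.2 ± 20.7 TPM (adjusted p by limma = 0.202).

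Among the 14 genes of Gli processing, 1 was higher and 0 lower. They mark Gli proteins for cutting or degradation or regulate this marking, and not all act in the same direction. The median was 0.35, or 0.23 after median-ratio scaling and 0.20 after the correction on GC content and length. The count of genes called higher depended on single libraries. Without control replicate 2 it was 5 of 14 higher, beside 2432 of all tested genes, against 1295 of all tested genes with all libraries. Spop, Cul3, Itch and Csnk1a1, which take part in the turnover or phosphorylation of Gli proteins, were then past the threshold beside Prkacb. Without shKmt2f replicate 1 the count was 0, beside 147 of all tested genes. Prkacb, a catalytic subunit of protein kinase A, whose phosphorylation of Gli proteins precedes their cutting, rose from 13.3, 18.3 and 16.8 to 35.7, 39.8, 29.8 and 27.6 TPM (log2 fold change 0.99, SE 0.17, adjusted p by limma = 0.0154). The groups did not overlap, and the call was lost without shKmt2f replicate 1 (0.0511). After the correction on GC content and length the log2 fold change of Prkacb was 0.64. The more abundant regulatory subunit Prkar1a lay between 341 and 361 TPM in control and between 320 and 368 TPM in shKmt2f libraries.

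Among known targets in various tissues, 1 of 11 tested genes was higher and 2 were lower (median -0.08), counting Ptch1, and these counts were 0 to 1 and 1 to 2 with single libraries left out. Ccnd1, which codes for cyclin D1, fell from 115, 139 and 136 to 58.7, 63.5, 67.2 and 71.4 TPM (log2 fold change -0.98, SE 0.12, adjusted p by limma = 0.00604) and stayed past the threshold in 15 of 15 alternatives. Cdc25b, a phosphatase that promotes entry into mitosis, fell from 61.6 ± 15.9 to 30.8 ± 5.74 TPM (-0.97, SE 0.20, adjusted p = 0.0243). Bmi1, a Polycomb protein, rose from 36.3 ± 22.6 to 100.6 ± 7.95 TPM (1.60, SE 0.31, adjusted p = 0.0219), with control replicate 2 at 62.4 TPM and the other controls at 22.1 and 24.5 TPM. After the correction on GC content and length the log2 fold change of Bmi1 was 1.02. Cdc25b and Bmi1 each kept their call in 10 of 15 alternatives, and the adjusted p without single libraries reached 0.0665 and 0.0786. Of the 3 targets that are also feedback members of the pathway, the gene sums of Gli1, Ptch1 and Hhip did not pass their tests, while the Hhip coding transcript alone was at the smallest permutation p, as given above.

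**Figure D5:**
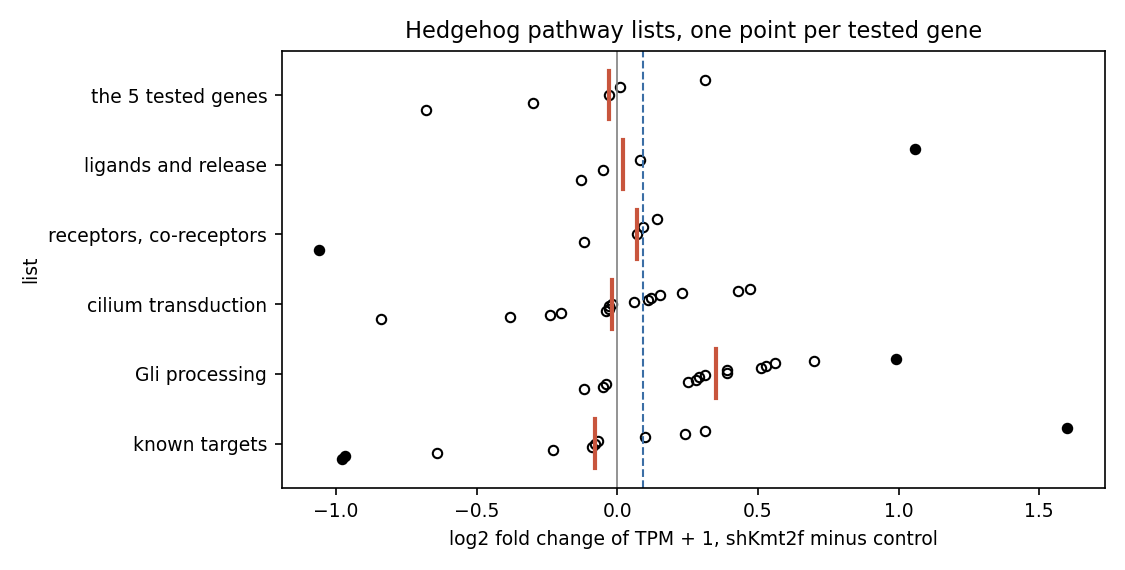
Log2 fold changes of TPM + 1, shKmt2f minus control, 1 point per tested gene, for the 5 tested genes described above and the 5 pathway lists. Filled points have an adjusted p under 0.05, red bars are list medians and the dashed line is the median of all tested genes (0.09). The Gli processing list has the highest median, 0.35, and 6 genes of the lists are filled.

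Marker genes of retinal cell types, among them those that send and receive Hedgehog signals, are given here as values and counts. Of all tested genes, 10.4% were higher and 3.69% lower. The 19 progenitor markers summed to 1810 to 2160 TPM in control against 1560 to 1720 TPM in shKmt2f libraries, 80.0% of the control mean, with 0 higher and 4 lower, among them Ccnd1 and the Notch effector Hes5 (364 ± 28.0 to 222 ± 13.5 TPM, adjusted p = 0.00987). Single progenitor markers ranged from 50.2% (Ccnd1) to 143.7% (Nes) of the control mean, with Pax6, Sox2 and Rax at 107.6%, 101.6% and 95.6%. Without control replicate 2 the count was 2 higher and 4 lower, and without shKmt2f replicate 1 it was 0 higher and 2 lower. The ganglion cell markers summed to 81.9 to 128 TPM in control against 132 to 162 TPM in shKmt2f libraries. By limma, 7 of 8 tested were higher and 0 lower, among them Gap43 and Isl2. Nefl and Isl1 reached the filter only by counting shKmt2f libraries, where they were higher. Without a filter 8 of 14 were higher, with a median log2 fold change of 0.46 against 0.93 with it. At a mean of at least 5 TPM the count was 4 of 5. With the main filter, leaving out control replicate 1, 2 or 3 gave 0, 7 and 1 higher, beside 144, 2432 and 220 of all tested genes. Leaving out shKmt2f replicate 1, 2, 3 or 4 gave 2, 2, 3 and 2, beside 147, 166, 351 and 303 of all tested genes. Ganglion cell markers under the filter included Pou4f2, Rbpms, Sncg, Thy1 and Ebf3, whose groups overlapped, with Sncg at 68.0% of the control mean. Pou4f1, also under the filter, did not overlap, at 0.186 to 0.199 TPM in control against 0.375 to 0.489 TPM in shKmt2f libraries. Stmn2, the tested ganglion cell marker that was not called, made up the largest part of the summed TPM. Its groups overlapped, at 52.5 to 87.4 TPM in control against 70.1 to 94.3 TPM in shKmt2f libraries (adjusted p by limma = 0.377). Photoreceptor and bipolar markers were at 440 to 550 against 684 to 912 TPM, with 3 of 8 higher (Otx2, Prdm1 and Crx). This count was 1 without any 1 of control replicates 1 and 3 and shKmt2f replicates 1, 2 and 3. Within this list, values ranged from 93.5% (Nr2e3) to 244.2% (Prdm1) of the control mean, with Nrl, Rxrg and Otx2 at 94.3%, 95.5% and 150.8%. Amacrine and horizontal cell markers were at 160 to 176 against 178 to 199 TPM, with 2 of 9 tested higher, a count that was 0 to 3 with single libraries left out. The summed Muller glia markers overlapped, at 1090 to 1430 and 1230 to 1450 TPM, with 1 of 8 tested higher and 1 lower. Glul, the glutamine synthetase of these cells, fell from 258 ± 28.4 to 176 ± 5.54 TPM (adjusted p = 0.0189), and Car14 rose from between 22.6 and 33.5 TPM in control to between 37.2 and 47.3 TPM in shKmt2f libraries (adjusted p = 0.0482). The call of Glul was lost without control replicate 1, control replicate 3 or shKmt2f replicate 1, 2 or 3. That of Car14 was lost whichever library was left out. Pigment epithelium markers with rows (4 of 8) summed to 4.33 to 5.03 against 5.95 to 8.15 TPM, with Dct higher. Of non-retinal types, the lens markers with rows (3 of 9) summed to 0.420 to 0.727 against 0.106 to 0.219 TPM and C1qa was the 1 of 8 microglia markers with a row, at up to 1.54 TPM. Of the endothelial and pericyte markers with rows (5 of 9), Kdr was at 40.8 to 76.3 TPM in control and 55.8 to 83.4 TPM in shKmt2f libraries. Cldn5 was at 21.5 to 28.6 and 15.5 to 25.2 TPM, and the summed ranges also overlapped. Pecam1 and Cspg4 reached at most 0.160 and 0.147 TPM in any library, and Cdh5 and Tek were among the markers without a row. The part of these differences in marker genes in the values of Gli3, Smo, Ccnd1, Cdc25b and Bmi1 was not tested.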

How the data were processed

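RNA of EGFP-sorted cells from mouse retina explants was turned into cDNA (SMART-Seq v4, input 1 ng) and into libraries with a Nextera DNA Flex kit, per the labels' protocols. The submitters' processing notes name Salmon 0.11.3, sleuth 0.30.0 and the build GRCm38.p6. TPM per transcript is what the authors deposited, in a table for each library. The deposited tables also repeat 1 set of the authors' p-values, q-values and effects, which by their values are on a natural log scale. These are quoted only where named. Of 55475 rows, 71 held no TPM or gene name and were left out. TPM totals were 991445 to 992309 per library. Since TPM keeps no depth, no counting interval can be given.

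TPM was summed per gene name, and log2(TPM + 1) was fitted with limma 3.58.1 in R 4.3.3, with a mean-dependent prior, robust estimation and group as the only term. The same fit was made for 37024 transcripts. The model code was tested on simulated data. Single values were compared with the exact permutation test, two-sided, over the 35 divisions of 7 libraries into 3 and 4, on log2(TPM + 1) for sums and log2(TPM + 0.1) for transcripts. No p was adjusted over the 8 genes or their 21 transcripts. Transcript types, lengths and positions are from GENCODE on GRCm38, and promoter windows from RefSeq.

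The genes and lists were chosen with earlier results of these data known. Named genes are the 8 genes, Setd1a, up to 4 genes past the threshold per pathway list (otherwise the 2 of highest mean TPM), up to 2 per marker list, and the 3 most like Gli1. Ihh, Dhh, Cdon, Gas1, Prkar1a, Kif7, Ankmy2, Evc, Spop, Cul3, Itch and Csnk1a1 were named after their values were seen. So were Crx, Nr2e3, Nrl, Rxrg, Pecam1 and Cspg4, and the progenitor and ganglion cell markers other than Ccnd1, Hes5, Gap43 and Isl2. Alternatives were median-ratio scaling, other filters (none, or a mean of at least 5 TPM), a pseudocount of 0.1, a loess correction on GC content and then length (span 0.3), coding transcripts only, length weighting before summing, the replicate number as a block, and leaving out each library.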

Additional observations from a re-analysis of the deposited data

Results flagged for a closer look

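In groups of 4 libraries, the highest value of Smo stood apart from the others. Smo in shKmt2f replicate 2 was at 34.8 TPM while the other 3 shKmt2f libraries lay between 29.1 and 29.6 TPM, and the same library was at 33.6 TPM for the coding transcript ENSMUST00000001812.4, which makes up nearly all of the sum. The gap exceeded Dixon's limit at 95% for 4 values. Chance passes this limit in about 1 of 20 groups, and 34 groups were examined. Without this library the Smo log2 fold change was -0.36 (adjusted p by limma = 0.197), against -0.30 with it.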

How the results depend on the processing

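No Hedgehog gene was called higher in any of the 15 alternatives. The number called lower was 0 with all libraries, 2 (Gli3 and Smo) under the GC and length correction, length weighting and median-ratio scaling, and 1 (Gli3) with coding transcripts only. Leaving out single libraries gave 0 to 1. Of their transcripts, 1 (full-length Gli3, adjusted p by limma = 0.0446) was called lower under median-ratio scaling and 0 in the other 11. Sufu turned positive under the GC and length correction (0.05), with coding transcripts only (0.00), with the block (0.08), and without shKmt2f replicate 3 or 4 (0.08 each). Gli2 turned negative under the GC and length correction (-0.01), length weighting (-0.08) and median-ratio scaling (-0.08), and without control replicate 1 (-0.11), control replicate 2 (-0.08), shKmt2f replicate 1 (-0.00) or shKmt2f replicate 2 (-0.09). Over the libraries left out, the log2 fold change of Sufu ranged from -0.15 to 0.08 and that of Gli2 from -0.11 to 0.21. The Hhip coding transcript alone had an exact permutation p of 0.0286 against 0.343 for the sum. The causes of these changes were not tested.

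Over all genes, 640 were higher under the GC and length correction, and 940 and 824 lower under length weighting and median-ratio scaling. Leaving out single libraries gave 144 to 2432 higher and 131 to 571 lower, the most without control replicate 2. In the pathway lists 6 genes were higher under length weighting and 5 with coding transcripts only, and 5 lower under median-ratio scaling. Leaving out libraries gave 0 to 7 higher and 1 to 3 lower. Of all transcripts, 947 were higher and 460 lower at a mean of at least 5 TPM, 163 and 139 without filter, 202 and 163 with a pseudocount of 0.1, and 513 lower under median-ratio scaling. Leaving out libraries gave 19 to 3778 higher and 36 to 615 lower. The difference in coding share, in percentage points, ranged over the libraries left out from -4.14 to 14.2 for Ptch1, -2.90 to 6.04 for Sufu, -3.70 to 17.8 for Hhip, -5.43 to -2.65 for Gli3 and -1.31 to -0.572 for Smo.

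Deviations from the group mean correlated at 0.08, 0.065 and 0.06 between libraries with the same replicate number. For other pairs the correlations lay between -0.169 and 0.098. As the deviations are centred within groups of 3 and 4 libraries, these values cannot decide whether the numbers pair the libraries. In the block, shKmt2f replicate 4 is alone. With the replicate block 1043 genes were higher and 333 lower, but 1 transcript was higher and 0 lower, and Gli3 had a log2 fold change of -0.73 (adjusted p by limma = 0.0746). Each control library correlated best with another number, such as control 1 with shKmt2f 3 (0.098). Depth is unknown, and values under 1 TPM, such as those of Gli1 and Hhip, carry a counting error that the tables do not show.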

Other observations

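Over the 7 libraries, the genes of at least 5 TPM whose pattern was most like that of Gli1 were Rfxap (Pearson r = 0.951), Tiprl (r = 0.950) and Nucks1 (r = 0.947), out of 9569 compared. Rfxap stood at 117, 149 and 112 TPM in control libraries and at 90.0, 98.8, 99.5 and 87.5 TPM in shKmt2f libraries, and like Gli1 it was highest in control replicate 2. All points share the 2 groups and the 7 libraries, so the values are a description.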
